A study of Mus musculus with 22 samples.

Results

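The comparison set the response of cerebellar granule neurons to loss of Chd7 against their response to ICRF-193, and asked which genes answered differently. For each gene the difference was the Chd7 effect (Chd7_mutant minus CHD7_con) minus the ICRF-193 effect (ICRF193 minus DMSO), in log2 signal, so a value above 0 means relatively higher in the mutant and a value below 0 relatively higher with the drug. It used 16 of the 22 arrays of the series, 4 in each of the 4 groups, and 6 arrays of a further comparison entered only the joint normalization. Of 10772 genes tested, 699 differed between the perturbations (6.49%; limma, adjusted p under 0.05), 417 above 0 (3.87%) and 282 below 0 (2.62%). Genes counted above or below 0 are called genes, unless the text says not called, unadjusted or by sign.

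All arrays held cultured granule neurons (CGNs) from pups at postnatal day 7, purified on a percoll gradient. The labels give the strain as C56Bl6/J, and the methods of the study give C57BL/6N without separating the sexes. Per the study, the mutant pups carried Atoh1-Cre, which acts in the granule cell lineage, with both floxed copies of Chd7 (Chd7 f/f), and some CHD7 protein remained in the posterior lobe. The CHD7_con pups are labelled wild type, which in the study stands for Chd7 f/f. The other pair of groups received 10 µM ICRF-193 or its solvent DMSO for 12 h, and their labels give no genotype. The perturbations therefore differ in duration, in the cells they reach and in their controls, and these cannot be told apart from the perturbation itself.

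CHD7 is a chromatin remodeller that uses ATP to move nucleosomes at enhancers, and its loss in people causes CHARGE syndrome. Type II topoisomerases pass one DNA duplex through another to remove supercoils and tangles. Top2b is the form kept by neurons that have left the cell cycle, and long genes are known to depend on it. ICRF-193 closes the enzyme clamp on DNA without leaving breaks.

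The libraries had a structure that the group names do not show. Deviations from the group means correlated at 0.39 to 0.42 between same-numbered CHD7_con and mutant arrays. Between same-numbered DMSO and ICRF193 arrays they correlated at 0.28 to 0.41. However, replicates 1 and 2 resembled each other, as did 3 and 4. Arrays of such a set with unlike numbers correlated about as much between the groups, at 0.38 to 0.44 and 0.30 to 0.35. Pairing by number is therefore not shown apart from the sets. The typical SD between arrays was 0.148 to 0.219 within these sets and 0.23 to 0.325 across them. Nothing in the labels says what a set shares, so each group may hold only 2 independent preparations, in which case the p-values are too small. With a block for the replicate number, 679 genes were above 0 and 470 below, and 658 of the 699 genes were called again. With the set as a block the counts were 856 and 648, and all 699 were called again. Both blocks still count the 2 arrays of a set as separate samples, so neither meets the case of 2 preparations per group. When each set mean counted as 1 sample, 2 genes passed in each direction without a block, and 155 above and 36 below with the set as a block. The 4 that passed without a block were Neurod6, Bmp5, Zfpm2 and Zfp521, the last of which was named after its values were seen. All 699 genes had the same sign of the difference in both sets. They were called on these same arrays, so the match is no separate support. Of the genes not called, 3017 of 4910 above 0 and 3038 of 5163 below 0 matched as well.

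The libraries also differed in the Y-linked genes and in markers of other cells. The mean of Eif2s3y, Kdm5d and Uty was 6.81, 6.95, 4.23 and 4.00 in mutant replicates 1 to 4, where 4 is the floor, and between 8.33 and 9.60 in the other 12 arrays. The mutant arrays thus stood below all others, and the lowest pair was replicates 3 and 4. Control groups differed as well, with 1019 genes higher (9.46%) and 979 lower (9.09%) in CHD7_con than in DMSO. Among the 699 genes, 209 (29.9%) differed between the controls, against 18.5% of all genes tested. Of 29 granule lineage markers listed, 24 passed the filter on signal, so their being bright was fixed by the filter. Meis2, Cbln3 and Gabra6 were dimmer, did not pass and are left out of the mean. The mean of the 24 was lower with either perturbation. It was 12.15 to 12.26 in CHD7_con, 11.82 to 12.05 in mutant, 12.20 to 12.34 in DMSO and 11.95 to 12.10 in ICRF193 arrays. Of 24 members 6 fell in each, while 0 rose in the mutant and 2 rose with the drug. The median effect of the members was -0.18 in the mutant and -0.08 with the drug. Neurod1, a helix-loop-helix factor of granule neurons, averaged 14.96 ± 0.09, 14.81 ± 0.09, 14.93 ± 0.07 and 14.80 ± 0.07 (SD, n = 4) in these groups on its brightest probe set. Its other probe set fell by 0.47 in the mutant (limma over every probe set, adjusted p = 0.000696), and neither had a called difference.

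**Figure D1:**
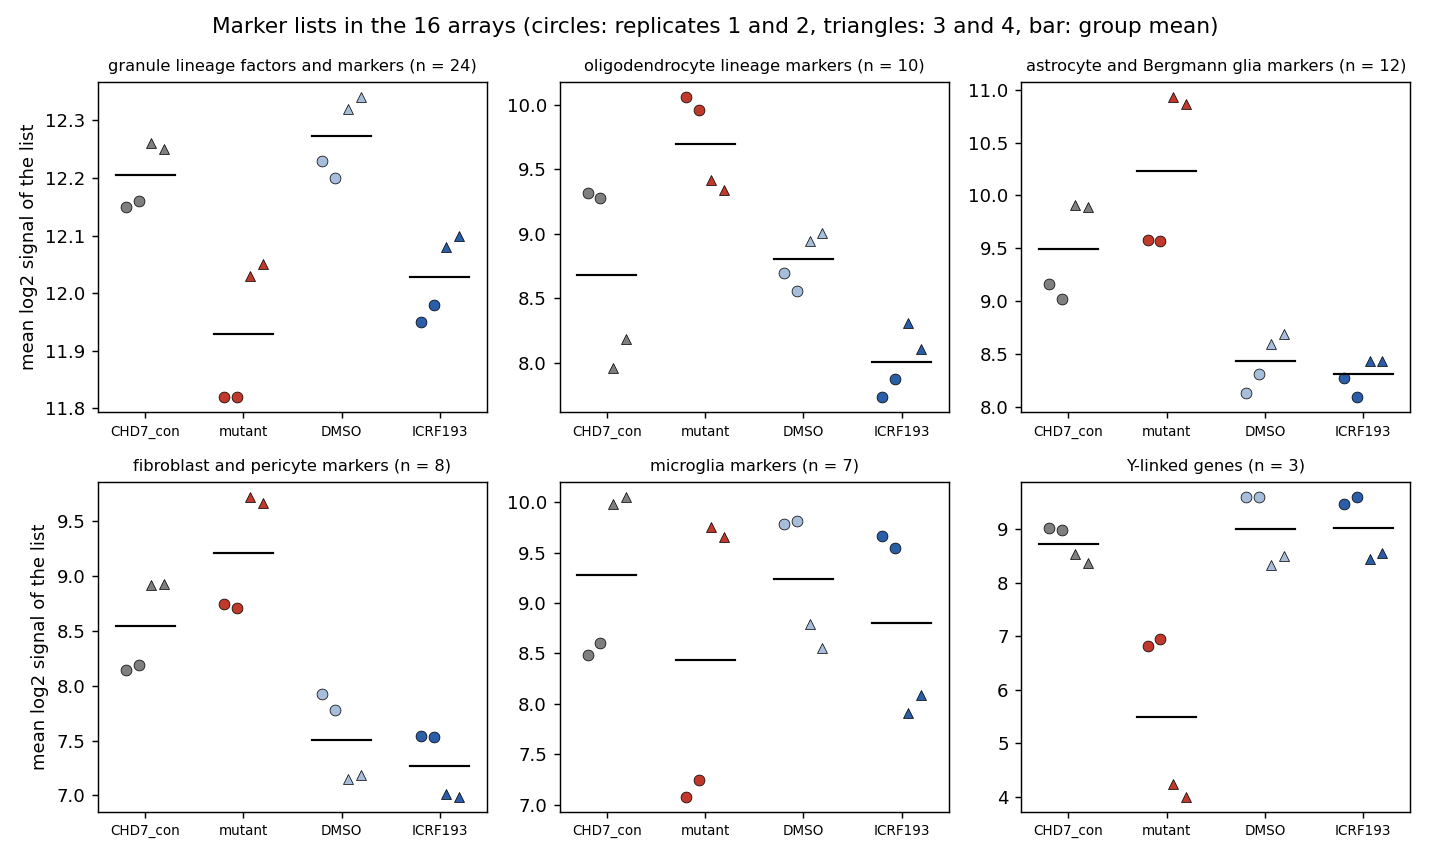
Mean log2 signal of 6 lists of marker genes (vertical axis) in each of the 16 arrays, by group (horizontal axis); circles are replicates 1 and 2, triangles are replicates 3 and 4, bars are group means, and n is the number of genes. Circles and triangles of a group lie apart in most panels, the mutant arrays are lowest for Y-linked genes, and oligodendrocyte markers are on average highest in mutant and lowest in ICRF193 arrays.

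The agents' own targets came first. The brighter Chd7 probe set read 11.74, 11.84, 11.99 and 12.01 in CHD7_con replicates 1 to 4, the order used throughout, and 11.51, 11.37, 11.86 and 11.85 in mutants. It read 11.86, 11.81, 12.07 and 12.18 with DMSO and 10.57, 10.32, 10.79 and 10.83 with ICRF-193. All ICRF193 arrays lay below all others, while control and mutant arrays overlapped. On this probe set the drug lowered Chd7 by 1.35 ± 0.14 (SE; limma adjusted p = 1.12e-05), the mutant value was -0.25 ± 0.14 (adjusted p = 0.295), and the difference was 1.11 ± 0.19 (adjusted p = 0.00277). Within same-numbered pairs the mutant values were -0.231, -0.47, -0.129 and -0.157, and the fall passed with the replicate block (limma adjusted p = 0.0456). The dimmer probe set fell in both, by 2.03 in the mutant and by 1.28 with the drug, in a fit of every probe set (adjusted p = 8.72e-05 and 0.00273), and its difference of -0.75 did not pass (adjusted p = 0.251). The probe sets thus disagree on the sign, and no source used here says which of them lies in the deleted part of Chd7. Top2b, the neuronal target of ICRF-193, had a difference of -0.19 on its brightest probe set (95% interval -0.44 to 0.06, adjusted p = 0.421), and Top1, a type I topoisomerase, one of -0.02 (-0.25 to 0.22, adjusted p = 0.964). Top2a, the form of dividing cells, had 0.42 with a wide interval (-0.77 to 1.61, adjusted p = 0.761), which passed with the replicate block (adjusted p = 0.0197) and turned to -1.38 with the Y-linked level as a covariate.

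Each perturbation on its own moved a similar number of genes in the same fit. Loss of Chd7 raised 571 genes (5.3%) and lowered 473 (4.39%), and ICRF-193 raised 480 (4.46%) and lowered 465 (4.32%). Across all genes tested the effects correlated with Pearson's r = 0.215 and Spearman's rho = 0.189, a description over genes, which are not independent replicates. The 699 genes were sorted by which effect passed on its own. In 281 only the Chd7 effect passed, in 242 only the ICRF-193 effect, in 50 both passed in opposite directions, in 41 both passed in the same direction with unequal size, and in 85 neither passed although their difference did. The classes depend on the pairing. With the replicate block the counts were 483, 362, 132 and 81 for the first 4 classes, and 16 of the 242 genes of the ICRF-193-only class and 22 of the 281 of the Chd7-only class moved to the opposite class. The opposite class held 17 genes with arrays centred on their median, 0 with set means, 20 with set means and a set block, 202 with a set block alone and 172 with the Y-linked level as a covariate. The classes below are those without a block.

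**Figure D2:**
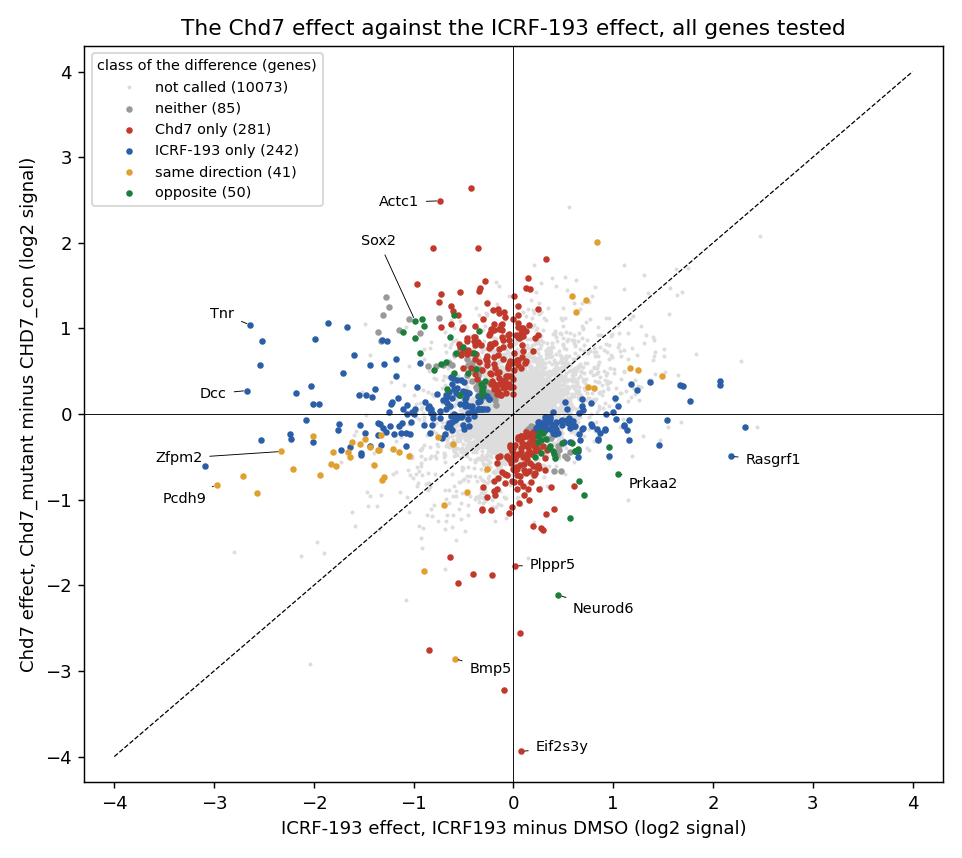
The Chd7 effect (vertical axis, log2 signal) against the ICRF-193 effect (horizontal axis, log2 signal) for the 10772 genes tested, coloured by class, with the number of genes in each class in the key; on the dashed line the effects are equal. Neurod6 and Prkaa2 lie in the lower right, Sox2 in the upper left, and a row of ICRF-193-only genes such as Dcc extends to the left near a Chd7 effect of 0.

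The opposite class had 24 genes lower in the mutant and higher with ICRF-193. Neurod6, a helix-loop-helix factor related to Neurod1, had the largest difference of the class. It read 10.68, 10.59, 10.80 and 10.68 in CHD7_con and 8.63, 8.57, 8.41 and 8.66 in mutant arrays. The DMSO arrays read 10.80, 10.72, 10.37 and 10.44 and the ICRF193 arrays 11.04, 10.97, 11.07 and 11.05. Mutant and control arrays were wide apart, the drug arrays all lay above the DMSO arrays, and the controls overlapped. Neurod6 fell by 2.11 ± 0.09 in the mutant and rose by 0.45 ± 0.09 with the drug, a difference of -2.57 ± 0.13 (limma adjusted p = 7.82e-08) that was -2.28 in replicates 1 and 2 and -2.85 in replicates 3 and 4. It passed with set means as samples (adjusted p = 0.0221) and under all other alternatives tried.

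Prkaa2, a catalytic subunit of the energy sensor AMPK, read 7.96, 7.83, 7.87 and 7.57 in CHD7_con and 7.36, 7.20, 6.81 and 7.09 in mutant arrays, and 7.88, 7.91, 7.64 and 8.07 with DMSO and 8.93, 8.59, 9.07 and 9.09 with ICRF-193. The control groups overlapped, all mutant arrays lay below them and all drug arrays above. Its difference of -1.75 ± 0.20 held a fall of 0.70 and a larger rise of 1.05 (adjusted p = 8.83e-05). Gprin3, of a family linked to neurite outgrowth, fell by 1.21 and rose by 0.57 (difference -1.78, adjusted p = 0.00033). Its rise did not pass with the replicate block (limma adjusted p = 0.0649). On its other bright probe set the rise was 0.33 and did not pass (adjusted p = 0.494). Frzb, a secreted Wnt antagonist, fell by 0.95 and rose by 0.71 (difference -1.66, adjusted p = 0.00258). Adamts20, a secreted metalloprotease, fell by 0.78 and rose by 0.66 (difference -1.44, adjusted p = 0.00158). Eomes, a T-box factor of unipolar brush cells that was picked after its values were seen, averaged 10.73 ± 0.11 in CHD7_con, 10.35 ± 0.09 in mutant, 10.59 ± 0.11 in DMSO and 11.54 ± 0.18 in ICRF193 arrays (difference -1.34 ± 0.13, adjusted p = 2.62e-05).

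The other 26 opposite genes were higher in the mutant and lower with ICRF-193. Sox2, a factor of neural progenitors and glia, read 9.60, 9.48, 9.19 and 9.03 in CHD7_con and 10.46, 10.38, 10.38 and 10.45 in mutant arrays. With DMSO it read 8.84, 8.72, 9.18 and 9.21, and with ICRF-193 7.73, 7.67, 8.32 and 8.29. Mutant arrays were all above their controls and drug arrays all below theirs. The rise of 1.09 and the fall of 0.99 gave a difference of 2.07 ± 0.24 (adjusted p = 0.000103), 1.96 and 2.19 in the sets. Sox2 belongs to the list of astrocyte markers, whose mean level was also highest, on average, in mutant arrays. With the drug that list had a median effect of 0.03, and of its 12 tested members only Sox2 itself fell. The oligodendrocyte lineage list, which does not hold Sox2, had median effects of 1.10 in the mutant and -0.69 with the drug. The part of other cells in the change of Sox2 was not tested.

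Cnn2, a calponin that binds actin, read 7.43, 7.76, 7.71 and 8.23 in CHD7_con, 8.53, 8.67, 8.97 and 8.79 in mutant, 7.43, 7.16, 7.22 and 7.17 in DMSO and 6.28, 5.54, 7.01 and 5.71 in ICRF193 arrays. The groups did not overlap within either experiment, and the drug arrays were widely spread. Its difference was 2.07 ± 0.36 (adjusted p = 0.00257). Spock1, a secreted proteoglycan, Epb41l2, which ties the membrane to the cytoskeleton, and S100a13, a calcium-binding protein, had differences of 2.02, 1.93 and 1.88 (adjusted p = 0.00314, 0.000876 and 0.00596). A pair of further S100 genes, S100a16 and S100a6, picked after their values were seen, rose by 0.91 and 0.52 in the mutant and fell by 0.64 and 0.37 with the drug. Genes of this direction were longer (median 124 kb) than those of the other (41.4 kb).

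The upstream windows of these genes are shown to set their letters against those of all genes. The RefSeq table (GRCm38.p6) held a window for 43 of the 50 opposite genes and 8785 of the 10772 genes tested, and the first window listed was used. The motif CANNTG, the E-box letters that helix-loop-helix factors such as Neurod6 recognise, is in capitals in the 250 bases before the start of Neurod6 (chr6:55681264-55681513, minus strand), Cnn2 (chr10:79988350-79988599, plus strand) and Sox2 (chr3:34649745-34649994, plus strand), each written 5′ to 3′ along the gene.
Neurod6: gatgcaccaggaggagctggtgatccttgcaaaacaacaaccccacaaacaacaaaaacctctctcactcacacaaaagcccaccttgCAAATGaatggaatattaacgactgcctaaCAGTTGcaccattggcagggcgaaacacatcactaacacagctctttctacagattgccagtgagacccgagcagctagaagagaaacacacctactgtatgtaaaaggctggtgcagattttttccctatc
Cnn2: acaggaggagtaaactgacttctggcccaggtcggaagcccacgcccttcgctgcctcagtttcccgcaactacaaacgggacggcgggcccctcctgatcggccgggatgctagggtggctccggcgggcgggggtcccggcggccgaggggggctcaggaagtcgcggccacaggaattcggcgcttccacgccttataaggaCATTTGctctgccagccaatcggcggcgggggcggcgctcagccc
Sox2: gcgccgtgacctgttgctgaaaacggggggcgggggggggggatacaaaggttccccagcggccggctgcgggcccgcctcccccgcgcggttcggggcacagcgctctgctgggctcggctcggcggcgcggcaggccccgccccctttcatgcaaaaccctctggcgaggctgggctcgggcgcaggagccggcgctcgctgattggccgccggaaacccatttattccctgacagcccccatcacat
Neurod6 held 2 matches, Cnn2 1 and Sox2 0. CANNTG, which reads alike on both strands, was in 55% of the windows of opposite genes below 0 (11 of 20) and 56.5% of those above 0 (13 of 23), against 55.4% of all 8785 windows. GGGCGG, the GC-box letters, searched on both strands and able to share its first G with the end of CANNTG, was in 80% and 56.5%, against 61.8% of all. TATAAA was in none of the 43 and in 5.92% of all. These are letter matches, not binding.

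Genes for which the Chd7 effect alone passed were 121 below 0 and 160 above. The largest differences below 0 were the Y-linked genes. Eif2s3y, a subunit of a translation factor, read 9.88, 9.81, 9.47 and 9.54 in CHD7_con and 7.29, 7.65, 4.00 and 4.00 in mutant arrays, while DMSO and ICRF193 arrays ranged from 8.90 to 10.57. Its difference was -4.02 ± 1.05 (adjusted p = 0.0339), -2.28 and -5.76 in the sets, with 2 mutant arrays at the floor, so its size there is understated. Kdm5d and Uty, a pair of histone demethylase genes, had -3.13 and -2.61 (adjusted p = 0.0421 and 0.0369), with 2 mutant arrays at the floor for Kdm5d and 1 for Uty. The calls of Eif2s3y, Kdm5d and Uty were lost in 10, 13 and 9 of the 16 fits that left out 1 array. The sexes of the pups are not in the labels, and sex and genotype cannot be told apart in these arrays.

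The next genes below 0 were not on the Y chromosome. Plppr5, a membrane protein that shapes neuronal outgrowth, read 10.11, 10.02, 10.23 and 10.16 in CHD7_con, 7.97, 7.93, 8.66 and 8.86 in mutant, 10.00, 9.91, 9.54 and 9.62 in DMSO and 9.80, 9.85, 9.77 and 9.71 in ICRF193 arrays. The mutant arrays lay below all 12 others, which ran from 9.54 to 10.23. It fell by 1.77 ± 0.18 in the mutant, had 0.02 ± 0.18 with the drug, and had a difference of -1.79 ± 0.25 (adjusted p = 0.000593). Otx1, a homeobox factor of the anterior brain, fell by 2.75 with 2 mutant arrays at the floor, and its difference was -1.91 (adjusted p = 0.0212), while with the replicate block its drug effect passed too (adjusted p = 0.0475). Efnb2, an ephrin ligand, fell by 1.33 and had a difference of -1.60 ± 0.17 (adjusted p = 5.49e-05).

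Above 0, muscle genes led. Actc1, cardiac actin, read 6.19, 5.31, 6.79 and 6.63 in CHD7_con and 8.03, 7.95, 9.38 and 9.53 in mutant arrays, and between 5.36 and 7.12 with DMSO or ICRF-193. Mylpf, a myosin light chain of fast muscle, read 5.83, 5.39, 6.49 and 6.10 against 7.97, 8.23, 9.06 and 9.12. For both genes all mutant arrays were above all other arrays, and replicates 3 and 4 were the highest. The differences were 3.22 ± 0.58 and 3.07 ± 0.51 (adjusted p = 0.00338 and 0.00188), and Acta1, skeletal actin, had 1.49 ± 0.24 (adjusted p = 0.00168). Of 25 muscle genes listed only 5 passed the filter on signal, which a gene can pass through the mutant arrays alone. Some of those under it, picked here after their values were seen, read likewise in means. In CHD7_con, mutant, DMSO and ICRF193 arrays Myog, a factor of muscle differentiation, read 4.26, 6.66, 4.38 and 4.02. Tnnt1, a slow troponin, read 4.00, 6.73, 4.00 and 4.00. Others did not follow, such as Ckm at 5.699, 6.017, 6.405 and 5.989. Myh1, mostly at the floor, was also highest in DMSO arrays. Muscle cells or muscle RNA in the cultures were not tested.

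Others of this class were neuronal or glial. Unc5d, a netrin receptor, read 7.67, 7.27, 7.42 and 7.04 in CHD7_con, 9.54, 9.63, 8.93 and 9.06 in mutant, 7.04, 7.38, 6.45 and 6.22 in DMSO and 6.79, 6.59, 6.22 and 6.06 in ICRF193 arrays. The mutant arrays stood above the rest, and DMSO and drug arrays overlapped. Its difference was 2.30 ± 0.35 (adjusted p = 0.00117). Scrg1, a small secreted protein, and Cnp, an enzyme of myelin, had 2.75 ± 0.48 and 2.49 ± 0.52 (adjusted p = 0.00278 and 0.00943). Both varied with the set in their controls, Cnp reading 11.42 and 11.56 in CHD7_con replicates 1 and 2 and 9.77 and 9.91 in replicates 3 and 4. With the replicate block the drug effect on Cnp passed as well (adjusted p = 0.0104).

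Genes for which the ICRF-193 effect alone passed were 150 above 0, which fell with the drug, and 92 below 0, which rose. Tnr, tenascin-R of the perineuronal matrix, had the largest difference. It read 9.46, 9.46, 7.55 and 7.57 in CHD7_con, 10.18, 10.28, 8.88 and 8.86 in mutant, 8.14, 7.97, 8.21 and 8.08 in DMSO and 5.19, 5.48, 5.10 and 6.07 in ICRF193 arrays. The drug arrays were below all others, and the sets of the Chd7 experiment were far apart. Tnr fell by 2.64 ± 0.46 with the drug, had 1.04 ± 0.46 in the mutant (adjusted p = 0.18, and 0.00603 with the replicate block) and a difference of 3.68 ± 0.65 (adjusted p = 0.00294).

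Gpr17, a receptor of oligodendrocyte precursors, and Myrf, a factor that drives myelin genes, had differences of 3.37 and 3.11 (adjusted p = 0.00205 and 0.0028). Gpr17 read between 8.68 and 9.25 with DMSO and between 5.85 and 7.06 with ICRF-193, and 1 drug array was at the floor for Myrf. Dcc, the netrin receptor that guides axons and spans 1097616 bases of DNA, read 11.37, 11.46, 12.20 and 11.99 with DMSO and 8.78, 8.93, 9.39 and 9.24 with ICRF-193. In the other experiment it read 10.75, 10.71, 11.56 and 11.43 in CHD7_con and 11.05, 10.94, 11.83 and 11.73 in mutant arrays. The drug arrays lay far below every other array, while mutant and CHD7_con arrays overlapped between the sets. Within same-numbered pairs Dcc was higher in the mutant each time, by 0.294, 0.23, 0.276 and 0.299, and this passed with the replicate block (adjusted p = 0.0166, against 0.579 without). The difference was 2.94 ± 0.37 (adjusted p = 0.000258). Ppp1r16b, which directs a protein phosphatase, had 2.92 ± 0.45 (adjusted p = 0.00126). With the replicate block the mutant effects on Gpr17 and Ppp1r16b passed too (adjusted p = 0.0437 and 0.00526), so that these genes, Tnr and Dcc moved to the opposite class.

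On the other side, Rasgrf1, a Ras exchange factor of neurons, read 7.11, 7.77, 7.34 and 7.38 with DMSO and 9.44, 9.48, 9.59 and 9.80 with ICRF-193. It read 7.29, 7.28, 7.63 and 7.30 in CHD7_con and 5.88, 7.17, 7.42 and 7.05 in mutant arrays. The drug arrays stood above all 12 others, and 1 mutant array was far lower than the rest. Rasgrf1 rose by 2.18 ± 0.25 and had a difference of -2.67 ± 0.36 (adjusted p = 0.000436). Plch2, a phospholipase C, and Chst1, a sulfotransferase, both rose by 2.07 (differences -1.73 and -1.69, adjusted p = 0.000863 and 0.00584). Cd14, a co-receptor for bacterial lipid on myeloid cells, rose by 1.46 (difference -1.82, adjusted p = 0.0374), a call lost in 9 of the 16 fits without 1 array. Kcnk3, a potassium leak channel, rose by 2.32 from DMSO arrays at 5.96, 5.23, 4.68 and 4.00, the last at the floor. Its controls differed by 2.39, which is nearly as large as its difference of -2.47 (adjusted p = 0.0145).

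Where both effects passed in one direction, 31 genes were above 0 and 10 below. Bmp5, a bone morphogenetic protein ligand, read 9.35, 9.51, 9.34 and 9.50 in CHD7_con, 6.30, 6.56, 6.84 and 6.56 in mutant, between 8.94 and 9.01 in DMSO and 8.66, 8.16, 8.28 and 8.47 in ICRF193 arrays. It fell in both, far more in the mutant (2.86 ± 0.11) than with the drug (0.59 ± 0.11), and the difference was -2.27 ± 0.16 (adjusted p = 1.62e-06). Skap2, an adaptor of Src kinases, fell by 1.83 and 0.90 (difference -0.94, called on 1 of 3 bright probe sets), and Enc1, which binds actin, rose by 0.44 and 1.49.

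In the reverse case the drug effect was the larger. Zfpm2, a cofactor of GATA factors, read 13.42, 13.53, 13.48 and 13.47 in CHD7_con, 13.03, 12.93, 13.09 and 13.10 in mutant, 13.19, 13.10, 12.97 and 13.15 in DMSO and 10.67, 10.94, 10.64 and 10.86 in ICRF193 arrays. Groups of each experiment did not overlap, and the drug arrays were far below the rest. It fell by 0.44 ± 0.07 in the mutant and by 2.33 ± 0.07 with the drug, a difference of 1.89 ± 0.11 (adjusted p = 1.56e-07). Pcdh9, a protocadherin, fell by 0.83 in the mutant and fell by 2.97 with the drug, and the uncharacterised C130030K03Rik fell by 0.73 and fell by 2.71 (differences 2.15 and 1.98, adjusted p = 2.26e-05 and 0.000113). Of 3 bright probe sets of Pcdh9 only the brightest passed, and the others had differences of 0.39 and 0.01. Among the 31 genes the Chd7 effect was the larger in 4, and among the 10 in 5.

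**Figure D3:**
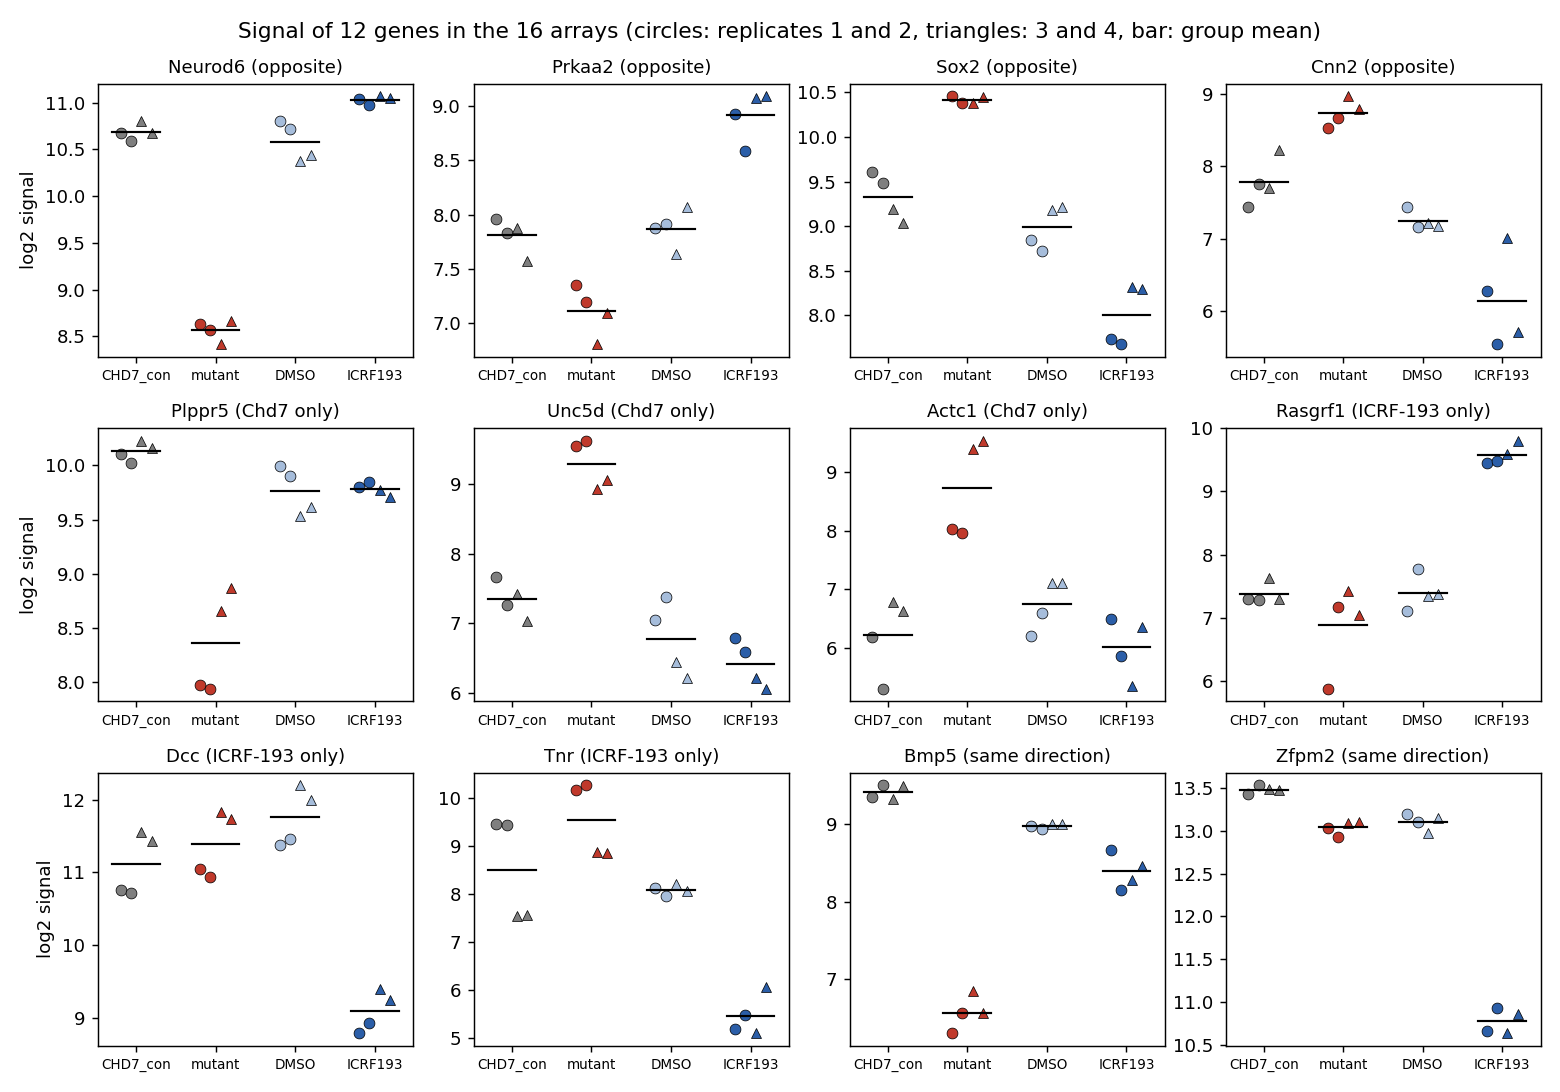
Log2 signal (vertical axis) of 12 genes in the 16 arrays, by group (horizontal axis), with the class of each gene in its title; circles are replicates 1 and 2, triangles are replicates 3 and 4, bars are group means. Neurod6 and Prkaa2 are lowest in mutant and highest in ICRF193 arrays, Sox2 and Cnn2 are the reverse, and for Tnr the CHD7_con arrays fall into a high and a low pair.

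The study names 12 of the tested genes, chosen on these samples among others, so their direction is no independent evidence. All but Neurod1 (on its brightest probe set) fell in the mutant and 9 fell with the drug, and 6 differed between the perturbations, 5 above 0 and Bmp5 below. Grik2, a kainate receptor, fell by 0.92 and 2.57 (difference 1.65 ± 0.14, adjusted p = 5.15e-06), Unc5c, a netrin receptor, by 0.71 and 1.94 (1.24 ± 0.18, adjusted p = 0.000876), and Reln, the secreted guidance protein of granule cells, by 0.38 and 1.44 (1.06 ± 0.15, adjusted p = 0.000526). On its other bright, but dimmer, probe set Reln fell by 1.02 and 1.74. That difference of 0.72 did not pass (limma over every probe set, adjusted p = 0.203). Cacna2d1, part of calcium channels, differed by 1.36 ± 0.16 on its brightest probe set, while its 5 bright probe sets ranged from -0.84 to 1.36 and only 1 passed. Fstl5, which encodes a secreted protein, fell by 1.35 and 1.34, a difference with an interval of -0.57 to 0.56 (adjusted p = 0.998). Cadps2, a factor of vesicle release, and Kcnd2, a potassium channel, had 0.28 (0.02 to 0.55) and 0.39 (0.06 to 0.71) and did not pass (adjusted p = 0.222 and 0.164).

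Gene length separated the responses at its upper end. Of 335 tested genes longer than 300 kb, 108 (32.2%) were above 0 and 5 (1.49%) below, and 72 of them were in the ICRF-193-only class. Their median difference was 0.40, from a median of -0.11 in the mutant and -0.48 with the drug. In the mutant 71 of the 335 fell and 22 rose, and with the drug 164 fell and 6 rose. Shorter genes showed little of this. The share above 0 was 6.87% among 1237 genes of 100 to 300 kb and between 2.11% and 2.68% in the bins under 100 kb, whose median differences lay between -0.03 and 0.00. Within replicates 1 and 2 alone 114 of the 335 were above 0, and within replicates 3 and 4 alone 101. With set means and the set as a block 57 were.

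**Figure D4:**
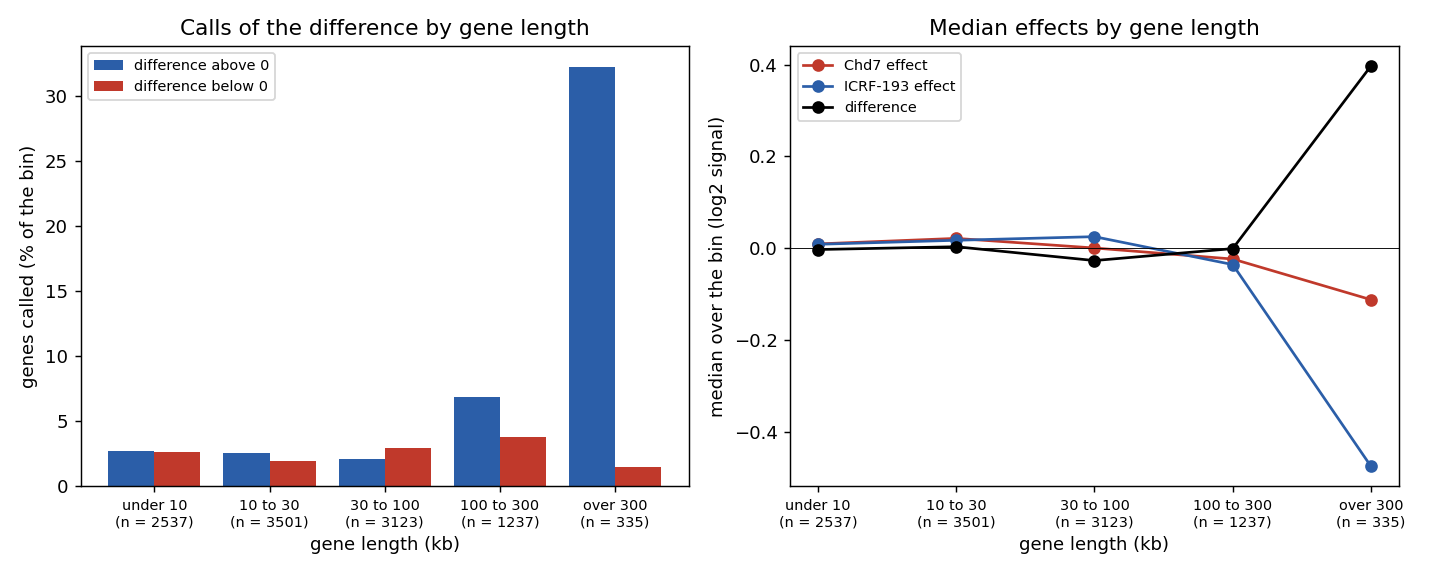
Left, the share of genes called above and below 0 (vertical axis, percent) by gene length (horizontal axis, kb, n is genes tested); right, the median Chd7 effect, ICRF-193 effect and difference (log2 signal) in the same bins. The bars and lines part from the shorter bins at genes over 300 kb, where 32.2% are above 0.

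The average of genes over 100 kb minus that of shorter genes gives each array's own value. It was 0.11, 0.07, 0.18 and 0.17 in CHD7_con and 0.05, 0.05, 0.09 and 0.10 in mutant arrays, and 0.06, 0.04, 0.04 and 0.02 with DMSO and -0.18, -0.17, -0.13 and -0.13 with ICRF-193. The drug arrays were the only ones below 0. Control and mutant arrays overlapped between the sets, and the mutant was the lower in all 4 same-numbered pairs. The difference of effects was 0.13, which was 0.19 in replicates 1 and 2, 0.08 in replicates 3 and 4 and 0.34 when the limit was 200 kb.

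Neuronal gene lists split by member rather than moving as a block. Over all genes tested 3.87% were above 0 and 2.62% below, the shares to set beside the counts of this and later lists. In the list of synaptic and adhesion molecules 13 of 37 were above 0 and 6 below, with a median of 0.40 against 0.00 over all genes tested. Ntm, an adhesion protein of the IgLON family, fell by 2.18 ± 0.12 with the drug and had 0.24 ± 0.12 in the mutant (adjusted p = 0.224, and 0.111 with the replicate block; difference 2.42 ± 0.17, adjusted p = 1.24e-06). Nrxn3, a presynaptic organiser, fell by 2.53 with the drug and had a difference of 2.22 ± 0.24, and Opcml and Cntnap2 had 2.01 and 2.00. The mutant effect on Opcml passed with the replicate block (adjusted p = 0.0441). All 4 are longer than 300 kb.

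Of 12 glutamate receptor genes 3 were called above 0, Grik2, Grik3 and Grin2b, and none was called below. Grin2b, a subunit of NMDA receptors, fell by 1.73 with the drug against -0.42 in the mutant (adjusted p = 0.0661 for the latter, and 0.00613 with the replicate block; difference 1.31 ± 0.19, adjusted p = 0.000815). Of 18 sodium and calcium channel genes 4 were above 0, all calcium channel subunits, led by Cacna2d3 at 2.35 ± 0.22 (adjusted p = 1.46e-05). Axon guidance had 5 of 34 above and 3 below, Dcc, Unc5d and Ephb1 on one side and Efnb2 on the other. The list of granule lineage factors had 5 of 24 on each side, Neurod6 below and Nfia, a factor of granule cell maturation (1.58 ± 0.16, adjusted p = 4.64e-05), above. Cadherins and protocadherins had 3 of 19 above and 2 below, with Pcdh9 at 2.15 and Pcdh8, which spans 4541 bases, at -1.61 ± 0.27 (adjusted p = 0.00205).

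**Figure D5:**
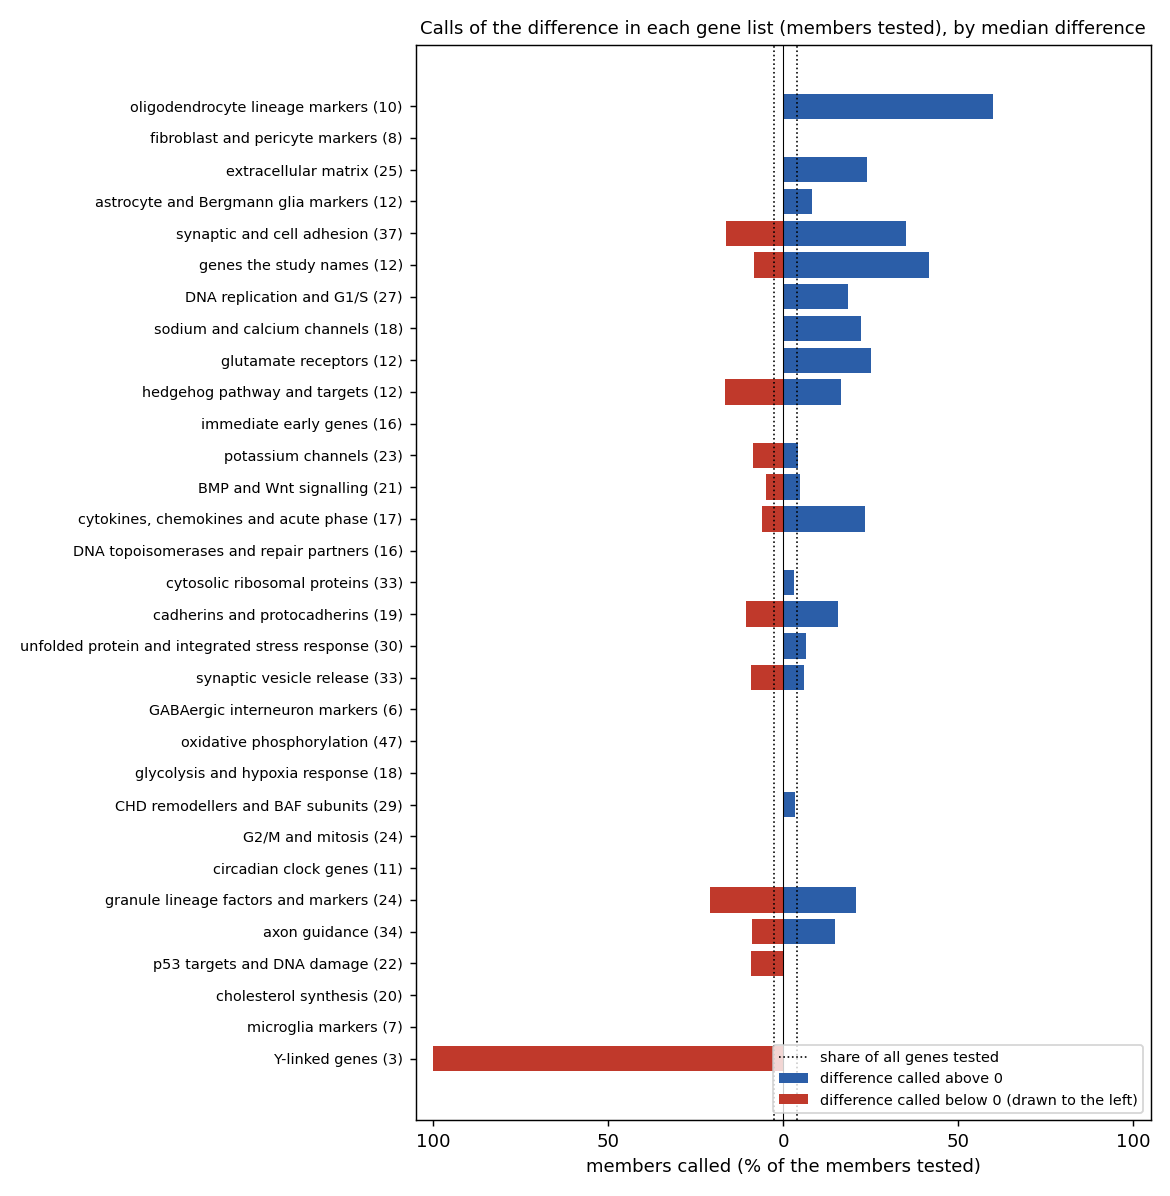
Share of tested members (horizontal axis, percent) whose difference was called above 0 (bars to the right) or called below 0 (bars to the left) in each gene list, with the number tested in brackets and lists ordered by median difference; dotted lines mark the shares over all genes tested, 3.87% and 2.62%. Lists with under 50% of their members tested, such as muscle, are left out; the oligodendrocyte list reaches 60% above 0, and the 3 Y-linked genes are all below.

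Oligodendrocyte lineage markers had the largest median difference of the lists whose median was above 0, at 1.87. By sign all 10 tested were above 0, and 6 of them were called. The mean of the list was 9.32, 9.28, 7.96 and 8.18 in CHD7_con and 10.06, 9.96, 9.42 and 9.34 in mutant arrays. It was 8.70, 8.56, 8.95 and 9.01 with DMSO and 7.73, 7.87, 8.31 and 8.11 with ICRF-193. Mutant arrays were all above their controls and drug arrays all below theirs, and CHD7_con replicates 1 and 2 were over 1 higher than 3 and 4. In bulk RNA, fewer cells of a type and less RNA per cell cannot be told apart.

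Olig2 and Olig1, the factors that set the lineage, had differences of 2.65 ± 0.59 and 2.16 ± 0.56 (adjusted p = 0.015 and 0.0334) although neither effect passed on its own without a block. With the replicate block both effects passed for both genes, the lowest and highest adjusted p being 0.00138 and 0.0141. The call of Olig1 without a block was lost in 8 of the 16 fits without 1 array. Mbp, a main protein of myelin, rose by 1.26 in the mutant and had a difference of 1.88 ± 0.52 (adjusted p = 0.0452). That call was lost in 14 of the 16 fits without 1 array and 9 other alternatives, and 4 of 8 bright probe sets passed, with differences from 0.32 to 3.19. Pdgfra, the receptor of early precursors, also picked after its values were seen, ran otherwise, with means of 10.28, 11.31, 10.94 and 11.62 in CHD7_con, mutant, DMSO and ICRF193 arrays. Within replicates 1 and 2 alone 6 of the 10 were above 0, within replicates 3 and 4 alone 8, and with set means and a set block 5. The count was 4 with arrays centred on their median and 3 without the shared variance.

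Lists of other cells stood beside it. Astrocyte and Bergmann glia markers had a median difference of 0.68, with Sox2 alone called of 12 (3 within replicates 1 and 2 alone, 8 within replicates 3 and 4 alone, and a median of -1.11 with 2 above and 3 below 0 with the Y-linked level as a covariate), and the mean level ran from 9.02 to 9.91 in CHD7_con, 9.57 to 10.93 in mutant, 8.13 to 8.69 in DMSO and 8.09 to 8.44 in ICRF193 arrays. Fibroblast and pericyte markers had a median of 1.01 with 0 of 8 called by limma (2 above 0 at an unadjusted p under 0.05, and 0 called without the shared variance), but 5 were above 0 within replicates 1 and 2 alone and 4 within replicates 3 and 4 alone. With the Y-linked level as a covariate their median was 0.08 and 1 was above 0. Microglia markers had -0.60 with 0 of 7 called (0 unadjusted, 0 without the shared variance), but 5 were below 0 within replicates 1 and 2 alone, and their level differed between the sets of each group. Extracellular matrix genes, many made by glia or fibroblasts, had 6 of 25 called above 0 and none below, with a median of 0.94. By sign 21 of the 25 were above 0. Among the 6 were Bcan, a brain proteoglycan (1.31 ± 0.35, adjusted p = 0.0373, lost in 11 of the 16 fits without 1 array), and Lamb1, a laminin chain (1.02 ± 0.19, adjusted p = 0.0036). Tnr, which fell with the drug, and Reln, which fell in both experiments, were also among them. With the Y-linked level as a covariate 5 of the list were above 0 and 4 below.

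The cell cycle was followed in a list for each phase, and the lists were not tested against each other. Of 27 genes of DNA replication and the G1/S step 5 were called above 0 (Gins2, Cdk2, Mcm6, Lig1 and Mcm4) and none below. Over all genes tested the shares were 3.87% and 2.62%. By sign 23 of the 27 were above 0, with a median of 0.33. Gins2, part of the replicative helicase, had 2.18 ± 0.60 (adjusted p = 0.0433), with 1 drug array at 4.79 and the others between 6.64 and 7.34. Mcm6, of the same helicase, had 1.29 ± 0.33 (adjusted p = 0.0327). The calls of Gins2 and Mcm6 were lost in 11 and 8 of the 16 fits without 1 array, that of Cdk2 in 8 and that of Lig1 in 0. With set means and a set block 2 of the 27 were above 0. For Cdk2 the controls differed by -1.06 (CHD7_con minus DMSO), and its fall with the drug passed with the replicate block (limma adjusted p = 0.00107). Of 24 genes of G2/M none was called by limma, none at an unadjusted p under 0.05 and none without the shared variance, with a median of -0.01 from medians of 0.46 in the mutant and 0.45 with the drug. With the Y-linked level as a covariate the replication list had 0 above 0 and 3 below, and the G2/M list 0 and 19. The D-type cyclins Ccnd2 and Ccnd1, targets of hedgehog signalling in granule progenitors, rose by 0.99 and 1.05 in the mutant (differences 1.50 ± 0.35 and 1.25 ± 0.18, adjusted p = 0.0172 and 0.000863). With the replicate block the fall of Ccnd2 with the drug passed too (limma adjusted p = 0.00177), while the drug effect on Ccnd1 did not (0.388). Ptch1, the hedgehog receptor and a direct target, had -0.40 ± 0.10 (adjusted p = 0.0245) and Sfrp1, a secreted Wnt antagonist, -0.66 ± 0.14 (adjusted p = 0.0108). Each passed on its brightest probe set alone. The second of Ptch1 had a difference of 0.00495, and the 5 of Sfrp1 ranged from -0.66 to 0.34.

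Of 17 cytokines, chemokines and acute phase genes 4 were above 0 and 1 below, a larger share than over all genes tested. Within replicates 1 and 2 alone 7 were above and 2 below, and within replicates 3 and 4 alone 3 each. Lcn2, an iron-binding acute phase protein, rose by 2.01 in the mutant and by 0.84 with the drug, from control levels that differed by 2.33. Ccl2, which draws monocytes, read 11.85, 11.75, 10.27 and 10.20 in mutant arrays against 9.64 to 9.81 in CHD7_con, so its rise was larger in replicates 1 and 2 (difference 2.06 ± 0.43, adjusted p = 0.00948). Of 22 p53 target genes 2 were below 0, against 2.62% of all genes tested. These were Eda2r, a receptor of the TNF family that rose by 1.77 with the drug (difference -1.62 ± 0.34, adjusted p = 0.0105), and Gadd45g (-0.63 ± 0.18, adjusted p = 0.0466), whose call was lost with the replicate block (adjusted p = 0.072) and in 13 of the 16 fits without 1 array. Of 33 cytosolic ribosomal protein genes 1 was called, Rps6 at 0.48, a smaller share than the 6.49% of all genes tested. None of 47 oxidative phosphorylation genes was called by limma (2 above and 2 below 0 at an unadjusted p under 0.05, 1 each called without the shared variance), and none of 20 cholesterol synthesis genes (0 and 4 unadjusted, 0 without the shared variance).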

How the data were processed

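Transcripts were measured on Affymetrix whole-genome mouse arrays of cultured granule neurons, 4 biological replicates per group by the labels. The authors deposited linear signal intensities of 45101 probe sets. For the summarisation step, no source used here gives a name. Every array had a mean of 500 once 2% was trimmed from each end, which shows scaling as a whole. Intensities carry no counts, and the number of arrays limits the precision.

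Signals were floored at 16, taken to log2 and quantile normalized over all 22 arrays, since array medians ranged from 6.33 to 6.81. No 2 of the arrays were identical (0 of 231 pairs). Probe sets with 1 gene symbol (34958) were kept, those with several (932) or none (9211) were not. The brightest probe set stood for its gene, and a mean of 6.44 or more was required for testing. Lengths come from GRCm38.p6 (39 genes without). limma 3.58.1 in R 4.3.3 fitted the 4 groups jointly on 16 arrays (12 residual degrees of freedom), two-sided, adjusted by Benjamini-Hochberg over 10772 genes and called under 0.05. The fit was tested on simulated data.

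Same-numbered arrays of an experiment correlated above 0.1, so the replicate number was used as a block in an alternative, with values given in the report. Arrays of the same set with unlike numbers correlated about as much, so the correlations do not single out the number. Gene lists (37) and members were chosen with earlier results of these data known. Named genes were Chd7, the topoisomerases and genes the study names, then, among called genes whose differences by replicate number did not overlap between experiments, the 5 with the largest difference each way of the opposite, Chd7-only and ICRF-193-only classes and 3 each way of the same-direction class, then up to 4 called members of each list, Y-linked genes and leading markers. Red blood cell markers had 0 members past the filter. Alternatives changed the normalization, floor, filter, probe sets, pairing, sets, covariate, variance model (an ordinary fit without limma's shared variance among them) and threshold, and each array was left out once.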

Additional observations from a re-analysis of the deposited data

Results flagged for a closer look

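Among 50 named genes in the 4 groups, 4 of 200 groups held an array whose gap to the nearest other array took up more of the group's range than Dixon's 95% value allows, and chance alone flags about 1 in 20 groups. In ICRF193 replicate 1 Gprin3 read 9.01, against 9.49 to 9.52 in the other arrays of the group, still above every DMSO array but 1. Rasgrf1 read 7.63 in CHD7_con replicate 3, against 7.28 to 7.30. C130030K03Rik read 9.44 in mutant replicate 1, against 9.63 to 9.67. Gap43, a growth cone protein, read 13.79 in ICRF193 replicate 1, against 13.76 in the others.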

How the results depend on the processing

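Arrays of a group lie in sets of 2 whose origin is unknown, the controls of the experiments differ, and Y-linked and other cells' markers move with the groups. Their part in the results was not tested. Of the 104 named genes, 12 had a difference of the other sign under some alternative. In 9 of them neither value was called. The other 3 turned with the Y-linked level as a covariate, which is lowest in the mutant group. Fabp7 at -2.76 and Top2a at -1.38 were called there and not as reported, and Kdm5d, called as reported, stood at an uncalled 0.10 and is part of that covariate. The cause was not tested for the first pair. Of 55 named genes with several bright probe sets, 26 had all of them called and 7 had probe sets of both signs. Numbers of genes above and below 0, 417 and 282 as reported, became 260 and 122 with arrays centred on their median, 679 and 470 with the replicate block, 856 and 648 with a set block, 2 and 2 with set means, 155 and 36 with set means plus that block (added after the data were seen), 897 and 739 with the Y-linked level, 203 and 100 at an adjusted p under 0.01, and 184 and 64 with an absolute difference of at least 1. Only the number above 0 moved by over 1.5 times with the upper quartile filter (277) and the mean of probe sets (248). Leaving out 1 array gave 328 to 401 above and 210 to 274 below 0. Genes that differ between the controls, 1998 as reported, became 1159 with the mean of probe sets, 3205 over every probe set, 9 with set means, 1033 in replicates 1 and 2, 3026 with the Y-linked level, 785 under 0.01 and 175 with a difference of at least 1, and 1351 to 1969 without 1 array. The long gene difference, 0.133, was 0.0497 at a limit of 50 kb, 0.337 at 200 kb, 0.185 in replicates 1 and 2, 0.0806 in replicates 3 and 4 and 0.113 to 0.148 without 1 array. Other normalizations, floors and variance models kept both counts within 1.5 times.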
